A study of Mus musculus with 13 samples.

Results

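Axon guidance ligands and receptors were followed in control and RaptorKO sciatic nerves at 5 days post crush (dpc). Their genes were chosen by symbol, as the protein-coding semaphorins of classes 3 to 7, plexins, neuropilins, ephrins, Eph receptors, Slits, Robos, netrins, netrin-Gs, and the Unc5 and Dcc receptors. This choice was made with earlier results of these data known. Of 72 such symbols, 57 had at least 50 counts in 2 or more of the 13 libraries, among 12851 such genes in a table of 40787. Here 47 of the 57 reached this level in both injured and contralateral nerves. Robo1, Sema4a, Sema4f, Efna2, and Ntn5 did so in injured nerves only, and Epha6, Epha7, Sema5b, and Efnb3 in contralateral nerves only. Unc5c passed with 1 library of each side. The 15 symbols that did not pass were Epha1, Epha3, Epha8, Epha10, Robo2, Robo3, Slit1, Dcc, Unc5b, Unc5cl, Unc5d, Sema3a, Efna3, Efna4, and Efna5. Unc50 matches the symbol rule but does not encode a netrin receptor, and it is counted with the Unc5 and Dcc genes below.

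The study crushed 1 sciatic nerve per mouse and compared the tissue distal to the crush with the uninjured contralateral nerve. RaptorKO mice were backcrossed C57BL/6 animals with floxed Rptor alleles and a tamoxifen-inducible Cre transgene active in Schwann cells (SCs), the glia of peripheral nerves. Rptor encodes Raptor, the subunit that defines mTORC1, a kinase complex that promotes growth and protein synthesis. Controls carried the floxed alleles without Cre. Both genotypes received tamoxifen at 2 months of age and were operated on 2 months later. The 4 groups were control contralateral (n = 3), RaptorKO contralateral (n = 4), control injured (n = 3), and RaptorKO injured (n = 3) nerves, with 1 library per nerve. RNA came from whole nerves stripped of the epineurium, so each library holds SCs together with fibroblasts, vessels, perineurial cells, and, after injury, macrophages. In such bulk samples, fewer cells of a type and less RNA per cell cannot be told apart.

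Guidance cues are secreted or membrane-bound proteins that attract or repel growing axons and migrating cells through receptors on their surface. Class 3 semaphorins bind neuropilins and plexins, while most other semaphorins bind plexins directly. Ephrins signal through Eph receptors upon cell contact, Slits through Robos, and netrins through Dcc and the Unc5 receptors. After nerve injury, SCs, fibroblasts, and vessels distal to the lesion form the environment through which axons regrow, and ephrin signaling between fibroblasts and SCs is known to sort SCs into the cords that guide them.

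Library totals were 8200458 to 13581775 counts. Values are given as CPM, a gene's share of the library's counts after scaling with TMM factors, and within groups Pearson's r of log2(CPM + 1) was 0.962 to 0.984 across genes, which are not independent replicates. Rptor, the targeted gene, had 43.9 to 52.7 CPM in control and 22.1 to 28.2 CPM in RaptorKO contralateral nerves, and 35.2 to 48.8 against 23.3 to 28.8 CPM in injured nerves. Its log2 fold changes were -1.0 ± 0.12 and -0.68 ± 0.15 (adjusted p = 5.00e-04 and 0.0167 by the quasi-likelihood test of edgeR), and the second call was lost without control injured 1 or 2 or RaptorKO injured 1 (adjusted p = 0.0511, 0.0882, and 0.0675, with 0.00106 to 0.0882 over its alternatives). Both libraries of control replicate 3 were high in Xist (14462 and 15017 counts) and low in Y-linked genes (10 to 20 counts). The other 11, with all RaptorKO libraries among them, had 4 to 17 Xist and 1456 to 2338 Y-linked counts. The study used mice of either sex, and the genotype comparisons were unbalanced in these counts. The fits without control injured 3 or control contralateral 3, given below, compare genotypes with libraries alike in them. The injury comparison of controls and the interaction were also computed without both nerves of that replicate. The summed level of 6 SC markers was 3616 to 3787 CPM in control and 1691 to 2384 CPM in RaptorKO contralateral nerves, and 2861 to 2956 against 1721 to 2150 CPM in injured nerves. Markers of T cells summed to at most 0.75 CPM in any library, and 3 neuronal markers to at most 13.1 CPM.

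In uninjured control nerves the guidance genes spanned a wide range of levels. Per kilobase of exon, Sema3b, a secreted ligand of neuropilins, was the most abundant with 423 ± 22.6 CPM per kb (SD, n = 3). It was followed by Sema3g, another secreted class 3 semaphorin, with 87.5 ± 4.83 CPM per kb. Sema5a and Sema6c, both transmembrane semaphorins, came next and overlapped, with 56.9 ± 4.57 and 56.3 ± 5.11 CPM per kb. Sema3b also stood first in each of the other 3 groups, with 430 ± 64.4 CPM per kb in RaptorKO contralateral (n = 4), 97.5 ± 5.88 CPM per kb in control injured, and 88.4 ± 12.3 CPM per kb in RaptorKO injured nerves (n = 3 each). After injury Sema7a, a semaphorin anchored in the membrane by a lipid, moved from 28.3 ± 1.63 to 70.7 ± 6.89 CPM per kb in controls and ranked behind Sema3b only.

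The injury response of controls was examined first. Guidance genes changed in both directions upon injury in control nerves, and the share called higher was near that of all tested genes. Of 55 members tested, 20 were higher (36.4%) and 26 lower (47.3%) in injured than in contralateral control nerves, or 83.6% in either direction. Calls came from edgeR's quasi-likelihood, or QL, test with p-values adjusted by Benjamini-Hochberg across every tested gene (adjusted p below 0.05 and fold above 1.2). Of all 12430 tested genes, 32.4% were called higher, 32.9% lower, and 65.3% in either direction. The groups did not overlap for 45 members, or 81.8%, against 70.9% of all tested genes. The median absolute log2 fold change of the members was 0.97, beside 0.60 over all tested genes. Among the members detected on both sides, 16 of 47 were higher and 23 lower, where 30% and 32.3% of all such genes were (62.3% in either direction). No left-out library moved either count by more than 1.5 times. Robo1, Sema4a, Sema4f, Efna2, Ntn5, Epha6, Epha7, and Efnb3 entered through the side where they were high, so the count minimum itself favored a difference upon injury, and their fold changes are given below as descriptions. Alongside, macrophage markers rose from 161 to 183 CPM in sum to 2780 to 3440 CPM (8 of 8 called), and myelin markers fell from 83184 to 92239 CPM to 1819 to 2466 CPM (6 of 6), and their part in the member values was not tested.

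**Figure D1:**
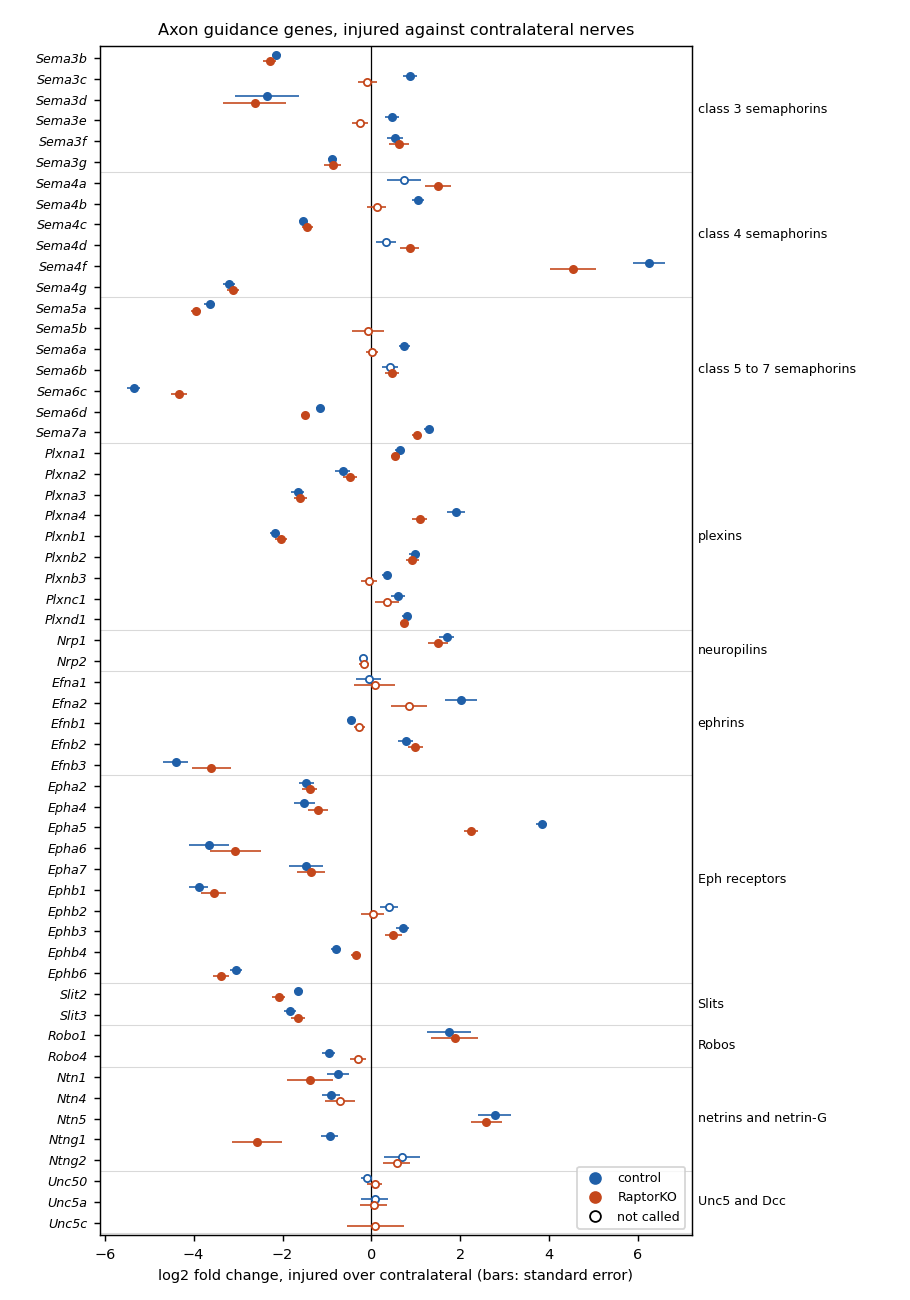
log2 fold change of each guidance gene in injured over contralateral nerves (x axis), for control (blue) and RaptorKO (orange) nerves, with bars for the standard error and open points for genes that were not called. Sema4f lies farthest to the right and Sema6c farthest to the left in both genotypes, Epha5 is next to Sema4f in controls, and genes without a point were not tested.

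Among the semaphorins, Sema4f had the largest rise. Sema4f encodes a transmembrane semaphorin known from glial and neuronal contacts. It had 0.0914, 0.9, and 0.294 CPM in control contralateral nerves, which were 1 to 11 counts, and 34.3, 35, and 36.8 CPM in control injured nerves. In RaptorKO nerves it went from 0.643, 1.46, 0, and 1.16 CPM to 18, 25.2, and 15.2 CPM. Injured and contralateral libraries were thus far apart in both genotypes, and Sema4f was near the floor in every contralateral library. Its log2 fold change upon injury was 6.24 ± 0.36 (standard error) in controls and 4.53 ± 0.52 in RaptorKOs. The size rests on few contralateral counts and was 7.43 without control contralateral 2. Sema4f passed the count minimum through injured nerves alone.

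Sema7a, which binds integrins and plexin C1, had 93.9, 87.7, and 98.4 CPM in control contralateral and 244, 248, and 207 CPM in control injured nerves. RaptorKO nerves had 71.5, 88.3, 75.8, and 78.2 CPM before and 160, 172, and 147 CPM after injury. All injured libraries lay above all contralateral ones, with log2 fold changes of 1.29 ± 0.096 in controls (adjusted p = 2.10e-07, edgeR QL test) and 1.02 ± 0.1 in RaptorKOs (adjusted p = 8.76e-06).

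Sema6c had the largest fall of all members in controls, and other semaphorins fell too. Sema6c, a transmembrane semaphorin that binds class A plexins, had 368, 325, and 309 CPM in control contralateral nerves and 8.44, 10, and 6.39 CPM in control injured nerves. In RaptorKO nerves it had 236, 280, 234, and 231 CPM before injury and 13.3, 14.3, and 8.73 CPM after it. Few counts remained in any injured library, and the log2 fold changes were -5.35 ± 0.15 in controls (adjusted p = 1.16e-10, edgeR QL test) and -4.34 ± 0.18 in RaptorKOs (adjusted p = 1.92e-08). Sema5a, which can both attract and repel axons and binds plexins, had 1010, 1162, and 1019 CPM in control contralateral and 88.2, 91.4, and 81.4 CPM in control injured nerves, a log2 fold change of -3.64 ± 0.12 (adjusted p = 1.72e-10). The RaptorKO libraries went from 1049, 1124, 957, and 1053 CPM to 69.2, 72, and 63.4 CPM, a log2 fold change of -3.94 ± 0.11 (adjusted p = 3.30e-09, edgeR QL test). Sema4g, a transmembrane class 4 semaphorin, fell from 179, 176, and 143 CPM to 19.8, 19.7, and 15.1 CPM in controls (log2 fold change -3.21 ± 0.13, adjusted p = 1.10e-09). In RaptorKOs Sema4g fell from 118, 132, 104, and 123 CPM to 16.4, 13.4, and 11.9 CPM (log2 fold change -3.11 ± 0.14, adjusted p = 4.44e-08). These 3 genes were thus lower in each injured library than in any contralateral library of either genotype.

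By class, 3 of 6 class 3 semaphorins were higher (Sema3c, Sema3e, and Sema3f) and 3 lower (Sema3b, Sema3d, and Sema3g) in injured control nerves. Of 6 class 4 semaphorins, Sema4b and Sema4f were higher and Sema4c and Sema4g lower, and of 6 tested members of classes 5 to 7, Sema6a and Sema7a were higher and Sema5a, Sema6c, and Sema6d lower. Sema3b fell by 2.14 on the log2 scale in controls, from 2021 ± 108 to 466 ± 28.1 CPM (SD, n = 3 each), and its log2 fold change in RaptorKOs was -2.29. The rise of Sema3e was small (0.46 ± 0.15) and lost its call without control contralateral 1 (adjusted p = 0.0629, with 0.00393 to 0.0753 over its alternatives, edgeR QL test). Sema3f was not called in controls without control contralateral 2 or 3 or control injured 2 (adjusted p = 0.0507 to 0.0854), and in RaptorKOs Sema3f lost its call without RaptorKO contralateral 1, 2, or 4 or RaptorKO injured 1 or 2 (adjusted p = 0.0566 to 0.188, edgeR QL test).

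The receptors of the semaphorins were nearly all called, where 65.3% of all tested genes were called in either direction. Of 9 plexins, 6 were higher (Plxna1, Plxna4, Plxnb2, Plxnb3, Plxnc1, and Plxnd1) and 3 lower (Plxna2, Plxna3, and Plxnb1) in injured control nerves. Plxna4, a receptor of class 6 semaphorins and a partner of neuropilins, had 7.58, 5.98, and 7.25 CPM in control contralateral and 31.6, 27.4, and 20.8 CPM in control injured nerves. In RaptorKOs it had 9.64, 13, 12.1, and 10.6 CPM against 19.7, 25.2, and 28.1 CPM. The injured libraries were higher throughout, by 1.91 ± 0.20 on the log2 scale in controls (adjusted p = 3.72e-06, edgeR QL test) and 1.09 ± 0.17 in RaptorKOs (adjusted p = 2.92e-04). Plxnb1, the receptor of Sema4d, had log2 fold changes of -2.18 ± 0.10 in controls and -2.04 ± 0.14 in RaptorKOs. Nrp1, the coreceptor of several class 3 semaphorins and of VEGF, rose by 1.69 ± 0.17 in controls and 1.5 ± 0.22 in RaptorKOs, whereas Nrp2 was at 161 ± 5.3 CPM before and 143 ± 14.1 CPM after injury in controls (SD, n = 3 each, adjusted p = 0.0771). Plxnb3 lost its call in controls without control contralateral 2 or 3 (adjusted p = 0.0642 and 0.0679) and in the fit of all 13 libraries (adjusted p = 0.0746, edgeR QL test).

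Among the Eph receptors, Epha5 stood out by its rise. Of 10 Eph receptors, 7 were lower (Epha2, Epha4, Epha6, Epha7, Ephb1, Ephb4, and Ephb6) and Epha5 and Ephb3 higher in injured control nerves, beside the 32.9% and 32.4% of all tested genes given above. The same genes were called in the same directions in RaptorKOs. Epha7 fell in controls with a log2 fold change of -1.48, which was -2.06 without control injured 1. Epha5 (ENSMUSG00000029245) lies on the minus strand of GRCm38 at chr5:84054761-84417382 and encodes a receptor of A-type ephrins best known from axon maps in the brain. It had 9.87, 7.86, and 8.53 CPM in control contralateral nerves and 136, 116, and 128 CPM in control injured nerves. RaptorKO nerves had 6.64, 6.97, 7.18, and 9.32 CPM before injury and 31.7, 40.7, and 34.4 CPM after it. Epha5 was thus low in all contralateral nerves, high in injured controls, and intermediate in injured RaptorKOs, with log2 fold changes upon injury of 3.83 ± 0.12 in controls (adjusted p = 1.68e-10, edgeR QL test) and 2.24 ± 0.16 in RaptorKOs (adjusted p = 1.02e-06).

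Ephb1, a receptor of B-type ephrins, fell from 41.9, 35.4, and 39.1 CPM to 2.84, 3.32, and 1.77 CPM in controls (log2 fold change -3.89 ± 0.21, adjusted p = 1.06e-08, edgeR QL test). In RaptorKOs it fell from 48.2, 61.2, 47.4, and 56.4 CPM to 2.23, 5.84, and 5.51 CPM (-3.55 ± 0.28, adjusted p = 1.58e-06). No injured library reached any contralateral one. Epha6, a scarce A-type receptor, had 7.22, 9.66, and 9.9 CPM in control contralateral and 1.19, 0.737, and 0.197 CPM in control injured nerves, and 5.27 to 8.15 CPM against 0.0789 to 1.16 CPM in RaptorKOs. The log2 fold changes were -3.65 ± 0.45 and -3.06 ± 0.57, from at most 13 counts in an injured library, for a gene that passed the count minimum through contralateral nerves alone.

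Among the ephrins, the ligands of these receptors, Efna2 and Efnb2 were higher and Efnb1 and Efnb3 lower in injured control nerves. Efnb3, a transmembrane ephrin, had 28.7, 21.3, and 32.8 CPM in control contralateral and at most 1.67 CPM in control injured nerves. Its RaptorKO values were 36.1, 22.2, 57.5, and 18.9 CPM before and 1.78, 2.61, and 3.95 CPM after injury. The injured libraries of both genotypes lay far below the contralateral ones, with log2 fold changes of -4.40 ± 0.28 and -3.60 ± 0.44, though Efnb3 passed the count minimum through contralateral nerves alone. Efna2, a lipid-anchored ephrin that passed through injured nerves alone, had 1.46, 1.72, and 3.33 CPM before and 9.45, 6.81, and 10.5 CPM after injury in controls (log2 fold change 2.02 ± 0.36). In RaptorKOs it had 1.04 to 3.83 CPM before and 4.41 to 5.45 CPM after injury, a log2 fold change of 0.85 ± 0.41 that was not called (adjusted p = 0.101, edgeR QL test).

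Both Slits fell upon injury in both genotypes, and Robo4 in controls. Slit2, a secreted repellent of axons and migrating cells, lies on the plus strand at chr5:47983138-48307733. It had 491, 509, and 474 CPM in control contralateral and 165, 165, and 148 CPM in control injured nerves, and 468, 520, 382, and 507 CPM against 97.2, 123, and 112 CPM in RaptorKOs. All injured nerves were below all contralateral nerves, by -1.65 ± 0.10 on the log2 scale in controls (adjusted p = 3.27e-08, edgeR QL test) and -2.09 ± 0.14 in RaptorKOs (adjusted p = 4.11e-07). Slit3 fell with log2 fold changes of -1.83 and -1.66. Robo1, a Slit receptor, was low throughout, with 1.64, 0.819, and 1.76 CPM in control contralateral and 7.34, 4.79, and 2.16 CPM in control injured nerves. The log2 fold change of Robo1 was 1.74 ± 0.50 in controls and 1.87 ± 0.53 in RaptorKOs, where 0.647 to 2.2 CPM became 2.29 to 5.62 CPM, and the gene passed the count minimum through injured nerves alone.

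Netrins were called in both directions. Ntn5, a short member of the family known from boundary cells at nerve entry points, had 2.28, 3.44, and 4.61 CPM in control contralateral and 11.5, 31.4, and 28.7 CPM in control injured nerves. The RaptorKO values were 1.42 to 3.26 CPM before and 18.3, 9.16, and 11 CPM after injury. All injured libraries of Ntn5, which passed through injured nerves alone, lay above the contralateral ones, with log2 fold changes of 2.77 ± 0.38 and 2.58 ± 0.35, and its exons overlap those of Sec1 on the other strand. Ntn1, the founding netrin, Ntn4, and Ntng1 were lower in injured control nerves. The call of Ntn1 was lost without control contralateral 1 or 3 or control injured 2 (adjusted p = 0.0633, 0.0725, and 0.0705). It was also lost with DESeq2 (adjusted p = 0.0643). In the fit of all 13 libraries neither Ntn1 nor Ntng1 was called in controls (adjusted p = 0.204 and 0.102, edgeR QL test). Of the Unc5 and Dcc genes, 0 of 2 tested were called in controls and 0 of 3 in RaptorKOs by the edgeR QL test, 0 had an unadjusted p below 0.05, and DESeq2 called 0.

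RaptorKO nerves responded to injury with many of the same calls. Of 57 members tested, 16 were higher and 23 lower (edgeR QL test), where 30.5% of all 12515 tested genes were higher, 28.5% lower, and 58.9% either. The groups did not overlap for 37 members against 60.6% of all tested genes, and the median absolute log2 fold change was 0.99 beside 0.53. The 2 injury comparisons share no library. Called higher in both were 13 members, which are 65% of the 20 in controls and 81.2% of the 16 in RaptorKOs. Called lower in both were 23 members, or 88.5% of the 26 in controls and 100% of the 23 in RaptorKOs. The same overlap was not computed over all tested genes, so these shares do not set the members apart from other genes. The calls in one genotype only were higher in controls for Sema3c, Sema3e, Sema4b, Sema6a, Efna2, Plxnb3, and Plxnc1, lower in controls for Robo4, Efnb1, and Ntn4, and higher in RaptorKOs for Sema4a, Sema4d, and Sema6b. Of these 13 genes, the interaction test called Sema6a, whose call most single libraries could end (values with the interaction). DESeq2 also called Sema3c and Sema4b in that test (adjusted p = 0.0377 and 0.0248), as did edgeR without a count filter (adjusted p = 0.0364 and 0.0286), and for Sema3c edgeR with each mouse as a block (adjusted p = 0.0255). The main fit gave Sema3c and Sema4b log2 differences of -0.97 and -0.95 without a call (adjusted p = 0.134 and 0.0936, edgeR QL test). Without both nerves of control replicate 3, Sema4a and Sema6b were called higher in controls too (adjusted p = 0.0103 and 0.0172), and Sema3e was not (adjusted p = 0.0753, edgeR QL test). Sema4a and Sema6b were also called in controls without control contralateral 3 (adjusted p = 0.0197 and 0.0407). For Sema6b so did leaving out control injured 3, no count filter, and the fit of all 13 libraries (adjusted p = 0.0279, 0.0444, and 0.0494). With the mouse as a block, Efnb1 was called lower in RaptorKOs as well (adjusted p = 0.0431) and Sema3f was not called (adjusted p = 0.115, edgeR QL test). Efnb1 was also called in the fit of all 13 libraries and without RaptorKO contralateral 4 (adjusted p = 0.0397 and 0.0497). Without RaptorKO injured 2, Robo4 was called lower and Plxnc1 higher in RaptorKOs too (adjusted p = 0.0193 and 0.0215). Ntn4 was called lower there without RaptorKO contralateral 2 (adjusted p = 0.0177, edgeR QL test). Single libraries also ended the RaptorKO calls of Ephb3 (RaptorKO contralateral 2, 3, or 4 or RaptorKO injured 1 or 2), Sema6b (RaptorKO contralateral 1 or RaptorKO injured 1 or 2), Plxna2 (RaptorKO injured 1 or 3), and Ephb4 (RaptorKO injured 1). Among members detected on both sides, 12 of 47 were higher and 20 lower in RaptorKOs, where 28% and 27.9% of all such genes were.

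Promoters are shown for Epha5 and Sema4f, the members with the largest rises upon injury in controls, and for Slit2, an abundant ligand that fell, because all 3 also differed between injured RaptorKO and control nerves. They are the 250 bases upstream of the annotated start in RefSeq (GRCm38.p6), written 5′ to 3′ on the gene's strand, with GC boxes (GGGCGG) and CCAAT boxes (CCAAT or its reverse complement ATTGG) in capitals. The Epha5 window is chr5:84417383-84417632 on the minus strand, that of Sema4f is chr6:82939770-82940019 on the minus strand, and that of Slit2 is chr5:47982905-47983154 on the plus strand.
Epha5: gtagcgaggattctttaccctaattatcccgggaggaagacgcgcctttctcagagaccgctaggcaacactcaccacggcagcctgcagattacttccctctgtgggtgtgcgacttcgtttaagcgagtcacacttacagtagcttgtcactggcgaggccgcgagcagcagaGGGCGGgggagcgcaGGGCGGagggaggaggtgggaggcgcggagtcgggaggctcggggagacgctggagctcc
Sema4f: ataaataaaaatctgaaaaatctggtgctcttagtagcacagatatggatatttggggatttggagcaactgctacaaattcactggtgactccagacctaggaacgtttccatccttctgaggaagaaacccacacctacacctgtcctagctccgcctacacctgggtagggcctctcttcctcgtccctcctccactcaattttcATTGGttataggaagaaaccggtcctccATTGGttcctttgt
Slit2: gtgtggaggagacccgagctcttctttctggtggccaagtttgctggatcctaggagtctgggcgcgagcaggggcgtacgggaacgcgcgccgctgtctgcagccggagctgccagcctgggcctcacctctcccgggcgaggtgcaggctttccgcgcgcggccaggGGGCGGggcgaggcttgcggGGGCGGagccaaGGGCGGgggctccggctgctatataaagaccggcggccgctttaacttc

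GC boxes began at -75 and -60 in Epha5 and at -81, -61, and -49 in Slit2, counted from the start, and CCAAT boxes began at -42 and -14 in Sema4f. Promoters matched for 50 of the 57 members, with 63 windows in all. The GC box, searched on both strands, was present in 46 (73%) of these windows and in 32.7% of all 32851 windows, and the CCAAT box in 18 (28.6%) against 33.8%. The AP-1 motif TGANTCA, the site bound by c-Jun and its partners, was present in 3 windows (4.76%, at Sema4c, Sema4d, and Sema6b) against 6.75% of all windows. The set of all windows had no count minimum, while the members had passed one, so the shares compare unlike sets of genes. These matches describe letters in a short window and were not tested as binding sites.

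RaptorKO and control nerves were then compared after injury. Injured RaptorKO nerves had less Epha5, Ntng1, Sema3e, Sema4f, Sema4b, Sema3c, Sema7a, and Slit2, and more Sema4a, Robo4, Efnb2, and Ephb4. These 8 lower and 4 higher genes were 12 of 52 members tested (23.1%, edgeR QL test), where 4.44% of all 12040 tested genes were lower, 4.09% higher, and 8.54% called in either direction. The groups did not overlap for 20 members (38.5%) against 26.2% of all tested genes, and the median absolute log2 fold change was 0.33 beside 0.18. For members detected on both sides the counts were 7 lower and 3 higher of 47, where 3.67% of all such genes were lower, 4.22% higher, and 7.89% called in either direction. The gene set was chosen with earlier results of these data known, so these shares are given as descriptions. Single libraries weighed on the counts of calls. Without control injured 1, 2, or 3 the lower calls were 5, 4, and 5 and the higher calls 1, 0, and 0. Without RaptorKO injured 1 they were 3 and 1, and without RaptorKO injured 2 or 3 the higher calls were 2.

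**Figure D2:**
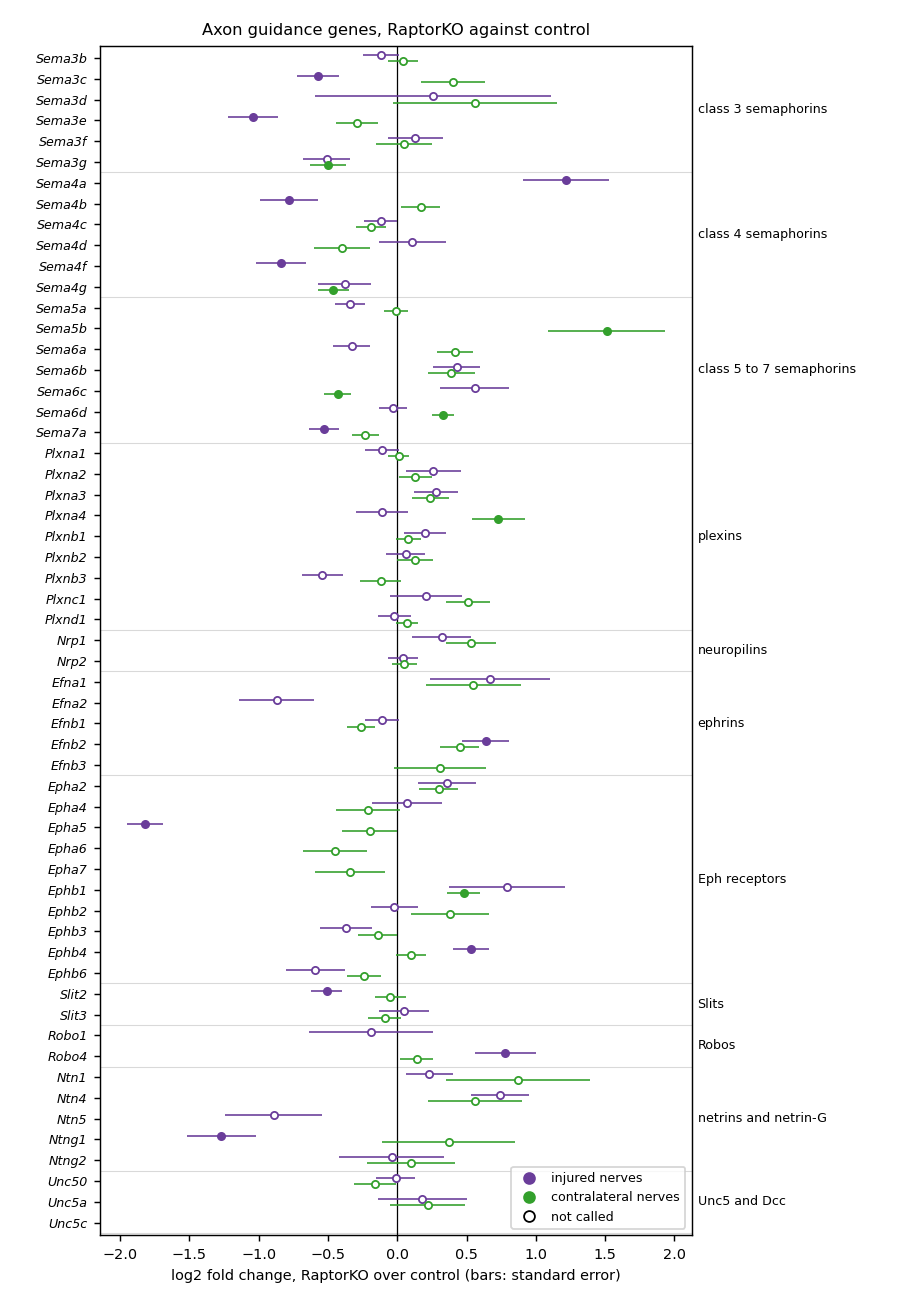
log2 fold change of each guidance gene in RaptorKO over control nerves (x axis), for injured (purple) and contralateral (green) nerves, with bars for the standard error and open points for genes that were not called. Epha5 in injured nerves lies far from its contralateral value and from all other members on the left, while its contralateral point lies near 0.

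Epha5 had the largest difference among the members. Its 31.7, 40.7, and 34.4 CPM in injured RaptorKOs against 136, 116, and 128 CPM in injured controls gave a log2 fold change of -1.82 ± 0.13 (adjusted p = 1.70e-05, edgeR QL test). It was called under each of 12 alternatives, with log2 fold changes from -1.93 to -1.74. In contralateral nerves the genotypes overlapped, at 7.86 to 9.87 against 6.64 to 9.32 CPM (adjusted p = 0.593).

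**Figure D3:**
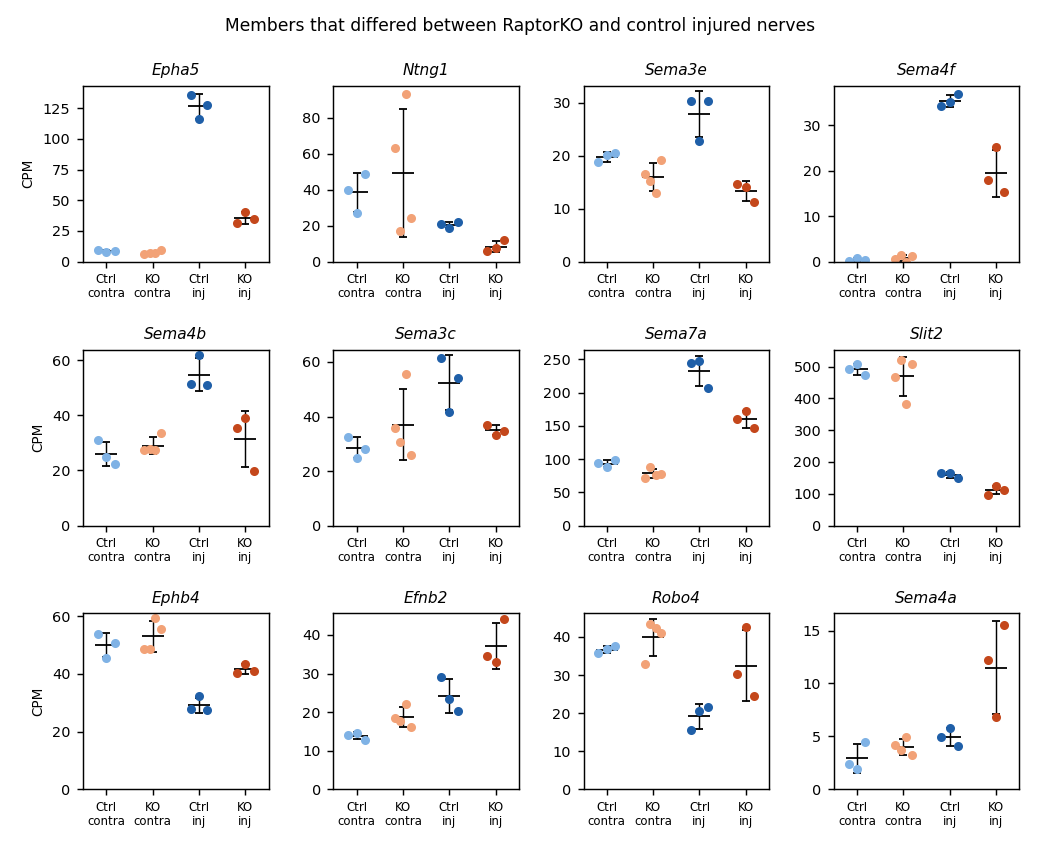
CPM (y axis, from 0) of the 12 guidance genes called between RaptorKO and control injured nerves, with 1 point per library for control contralateral, RaptorKO contralateral, control injured, and RaptorKO injured nerves, horizontal ticks for means, and bars for the SD. The injured RaptorKO points lie below all injured control points in the first 8 panels and above them in the last 4.

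Among the semaphorin ligands, Sema3e, which acts on plexin D1 without a neuropilin, had 30.4, 22.8, and 30.3 CPM in injured controls and 14.7, 14.1, and 11.3 CPM in injured RaptorKOs. Every RaptorKO library was lower, by -1.04 ± 0.18 on the log2 scale (adjusted p = 0.00536, edgeR QL test), and this call too was kept under each of 12 alternatives. Sema4f differed by -0.84 ± 0.18, with 34.3 to 36.8 against 15.2 to 25.2 CPM (adjusted p = 0.017). Its call was lost without control injured 2 or 3 or RaptorKO injured 1 (adjusted p = 0.0582, 0.058, and 0.0765) and ranged from 1.51e-04 to 0.168 over all alternatives. Sema4b, a transmembrane class 4 semaphorin, had 51.5, 61.8, and 51.1 against 35.4, 39.2, and 19.9 CPM (-0.78 ± 0.21, adjusted p = 0.0442, edgeR QL test). It was not called without any 1 of the injured controls or RaptorKO injured 1 (adjusted p = 0.0785 to 0.16, with 7.05e-05 to 0.16 over all alternatives). RaptorKO injured 3 was its lowest library, at about the level of contralateral nerves, which had 22.3 to 33.5 CPM.

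Sema3c, a class 3 semaphorin, had 61.6, 41.5, and 54.2 CPM in injured controls and 36.9, 33.1, and 34.8 CPM in injured RaptorKOs (-0.57 ± 0.15, adjusted p = 0.0364, edgeR QL test). The RaptorKO libraries were lower and closer together than the controls. Of the single libraries, control injured 2 was the only one that could be left out with the call kept (adjusted p = 0.0623 to 0.139 without each of the other 5, with 0.00456 to 0.139 over all alternatives). Sema7a differed by -0.53 ± 0.11, with 244, 248, and 207 against 160, 172, and 147 CPM (adjusted p = 0.0157). It was not called without control injured 1 or 2 or RaptorKO injured 1 (adjusted p = 0.0537, 0.0795, and 0.0652, with 6.86e-04 to 0.0795 over all alternatives). Sema4a, a class 4 semaphorin known from immune and vascular cells, was the only semaphorin that was higher, with control values of 4.95, 5.8, and 4.13 CPM and RaptorKO values of 12.2, 6.79, and 15.5 CPM (1.22 ± 0.31, adjusted p = 0.0337, edgeR QL test). These were 42 to 63 against 86 to 169 counts, and the call was lost without any 1 library except RaptorKO injured 2 (adjusted p = 0.0738 to 0.122, with 6.01e-04 to 0.122 over all alternatives).

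Of the semaphorin receptors, 0 of 9 plexins and 0 of 2 neuropilins were called in injured nerves by the edgeR QL test. Plxnb3 alone had an unadjusted p below 0.05, and DESeq2 called it (adjusted p = 0.0125), as did the exact test (adjusted p = 0.0168), edgeR without a count filter (adjusted p = 0.00186), and the fit of all 13 libraries (adjusted p = 0.0484). In injured nerves Plxnb3 was at 164 ± 15.7 CPM in controls and 111 ± 25.5 CPM in RaptorKOs (SD, n = 3 each, adjusted p = 0.0528, edgeR QL test), and it was called without RaptorKO injured 2 (adjusted p = 0.00243, with 0.00186 to 0.195 over all alternatives).

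For the other ligands, Slit2 had 165, 165, and 148 CPM in injured controls and 97.2, 123, and 112 CPM in injured RaptorKOs, a log2 fold change of -0.51 ± 0.11 (adjusted p = 0.018, edgeR QL test). The groups did not overlap, and the call was lost without control injured 1 or 2 or RaptorKO injured 1 (adjusted p = 0.0588, 0.0832, and 0.09, with 0.00221 to 0.09 over all alternatives). In contralateral nerves Slit2 overlapped between the genotypes (-0.05 ± 0.11, adjusted p = 0.838). Ntng1, a netrin-G tethered to the membrane that binds a synaptic adhesion protein and not Dcc, had 20.9, 18.5, and 21.9 CPM in injured controls and 5.71, 7.42, and 12 CPM in injured RaptorKOs. Each RaptorKO library was lower (-1.27 ± 0.25, adjusted p = 0.0106, edgeR QL test), and the call was lost only when all 13 libraries were fitted together (adjusted p = 0.129, the highest of its alternatives, from 4.32e-06). The contralateral values of Ntng1 spread widely, from 16.9 to 93.4 CPM in RaptorKOs. Ntn4 (0.74), Efna2 (-0.87), and Ntn5 (-0.89) were not called in injured nerves by the main fit. DESeq2 called Ntn4 and Efna2 (adjusted p = 0.0129 and 0.0434), as did the exact test (adjusted p = 0.017 and 0.0296). Without a count filter, Ntn4 and Ntn5 were called (adjusted p = 0.00187 and 0.00179). So were Ntn4 without RaptorKO injured 1 and Ntn5 without control injured 1 (adjusted p = 0.0356 and 0.0242, edgeR QL test).

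The members that were higher in injured RaptorKOs included 3 genes known from vessels. Efnb2, the ephrin of arterial endothelium and a ligand of Ephb4, had 29, 23.3, and 20.2 CPM in injured controls and 34.6, 32.9, and 44 CPM in injured RaptorKOs (0.64 ± 0.17, adjusted p = 0.0376, edgeR QL test). Ephb4, its venous receptor, had 27.7, 32.2, and 27.6 against 40.2, 43.6, and 41.1 CPM (0.53 ± 0.13, adjusted p = 0.0257). Robo4, an endothelial member of the Robo family, had 15.5, 20.5, and 21.5 against 30.3, 42.6, and 24.5 CPM (0.78 ± 0.22, adjusted p = 0.047). All RaptorKO libraries lay above all controls for the 3 genes, and Ephb4 and Robo4 in injured RaptorKOs came closer to the contralateral levels of 45.5 to 59.3 and 32.9 to 43.5 CPM than in injured controls. No call was kept throughout. Efnb2 was not called without control injured 2 or 3 or RaptorKO injured 1 or 3 (adjusted p = 0.0907 to 0.143, with 0.00369 to 0.143 over all alternatives, edgeR QL test). Ephb4 was not called without any 1 library except RaptorKO injured 3 (adjusted p = 0.0527 to 0.0905, with 0.00681 to 0.0905 over all alternatives), and neither was Robo4 (adjusted p = 0.0834 to 0.152, with 6.43e-04 to 0.152 over all alternatives). Ephb4 shares exon positions with Zan on the other strand.

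Endothelial markers were higher in injured RaptorKOs as well. All 8 of 8 endothelial markers (Pecam1, Cdh5, Tie1, Tek, Emcn, Cldn5, Kdr, and Esam) were called higher in injured RaptorKOs, and none was at 0. Their sum was 265, 330, and 408 CPM in injured controls and 497, 788, and 535 CPM in injured RaptorKOs. It was 472 to 519 against 479 to 586 CPM in contralateral nerves. RaptorKO injured 2 was the highest library for the sum, Robo4, and Ephb4. Of the injured controls, control injured 3 was highest for the sum and Robo4, and control injured 2 for Ephb4. Efnb2 had another order. RaptorKO injured 2 was its lowest library among the injured RaptorKOs, and across the injured controls Efnb2 fell in the order in which the sum rose. These orders rest on 3 libraries per group and were not tested. Of 6 tested pericyte and smooth muscle markers, 5 were higher as well, with sums of 448 to 547 against 839 to 1171 CPM. Of 6 SC markers 3 were lower, with the sums given above, while 8 macrophage markers summed to 2780 to 3440 against 1858 to 3789 CPM and 6 myelin markers to 1819 to 2466 against 1630 to 2141 CPM, with no gene of either list called. Mast cell markers, 4 of 5 higher, summed to 8.47 to 52.2 against 102 to 194 CPM, and fibroblast markers, 2 of 6 higher, to 6400 to 9273 against 8203 to 12943 CPM. The part of these cell types in the member differences was not tested.

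**Figure D4:**
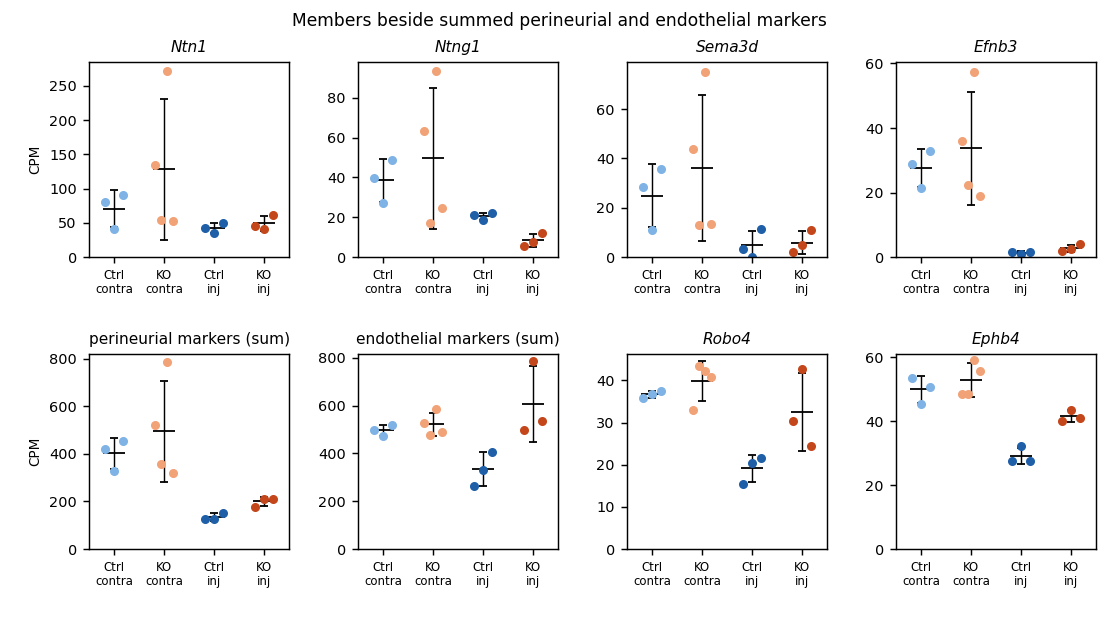
CPM (y axis, from 0) of Ntn1, Ntng1, Sema3d, and Efnb3 (top) and of the summed perineurial and endothelial markers, Robo4, and Ephb4 (bottom), with 1 point per library in the 4 groups, ticks for means, and bars for the SD. In contralateral nerves RaptorKO library 3 is highest in the top 4 panels and in the perineurial sum (784 CPM), and in injured nerves all RaptorKO points lie above the controls in the last 3 panels.

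The genotypes were also compared in contralateral nerves. RaptorKOs had more Plxna4, Ephb1, Sema6d, and Sema5b and less Sema3g, Sema4g, and Sema6c, which were 4 higher and 3 lower of 51 members tested (edgeR QL test). This was 13.7%, where 10.2% of all 11878 tested genes were called, 4.49% higher and 5.68% lower. The groups did not overlap for 10 members (19.6%) against 23.7% of all tested genes. Among members detected on both sides, 3 of 47 were higher and 3 lower, where 4.59% and 5.52% of all such genes were (10.1% in either direction). Each of the 7 calls was lost without control contralateral 1 and without control contralateral 2. Without control contralateral 3 the higher calls were 0, without RaptorKO contralateral 3 they were 2, and without RaptorKO contralateral 1 the lower calls were 0. In the same comparison 4 of 6 SC markers were lower, and 5 of 7 macrophage, 3 of 6 fibroblast, and 2 of 5 mast cell markers were higher, with sums of 161 to 183 against 260 to 330 CPM, 6501 to 7443 against 9550 to 12603 CPM, and 12 to 58.4 against 80 to 138 CPM for the last 3 lists, and their part was not tested.

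Sema6c had 368, 325, and 309 CPM in control and 236, 280, 234, and 231 CPM in RaptorKO contralateral nerves (-0.43 ± 0.096, adjusted p = 0.0203, with 5.75e-04 to 0.0927 over its alternatives, edgeR QL test). Sema4g had 179, 176, and 143 against 118, 132, 104, and 123 CPM (-0.46 ± 0.11, adjusted p = 0.0241, with 0.00167 to 0.116). Sema3g had 422, 381, and 389 against 269, 344, 223, and 276 CPM (-0.50 ± 0.13, adjusted p = 0.0365, with 0.00179 to 0.136). The RaptorKO libraries were lower than each control for these 3 semaphorins, which are among the more abundant guidance genes of the uninjured nerve. Sema3g also lay lower in injured RaptorKOs, at 169, 181, and 106 against 213, 216, and 229 CPM, without a call (adjusted p = 0.101, with 0.00488 to 0.227 over its alternatives, edgeR QL test). It was called when RaptorKO injured 2 was left out (adjusted p = 0.0259).

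Sema6d, a transmembrane semaphorin, was higher in RaptorKO contralateral nerves, with 256, 279, and 255 CPM against 336, 309, 318, and 345 CPM (0.33 ± 0.076, adjusted p = 0.023, with 9.85e-04 to 0.0922 over its alternatives, edgeR QL test). Ephb1 had 41.9, 35.4, and 39.1 against 48.2, 61.2, 47.4, and 56.4 CPM (0.48 ± 0.12, adjusted p = 0.0348, with 0.00641 to 0.194). Plxna4 had 7.58, 5.98, and 7.25 against 9.64, 13, 12.1, and 10.6 CPM (0.73 ± 0.19, adjusted p = 0.0358, with 0.0144 to 0.148). No RaptorKO library of these genes overlapped a control. Sema5b, a transmembrane semaphorin that reached the count minimum only through RaptorKO contralateral nerves and so had to lie higher there, had 0.731, 1.56, and 1.96 against 2.57, 4.29, 4.98, and 4.14 CPM, from 8 to 20 and 24 to 56 counts (1.51 ± 0.42, adjusted p = 0.0443, with 0.00478 to 0.137, edgeR QL test).

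Some members varied more within the contralateral groups than between them. RaptorKO contralateral 3 had the highest value of Ntng1 (93.4 CPM against 16.9 to 63.4 CPM in the other 3) and of Efnb3 (57.5 against 18.9 to 36.1 CPM). Ntn1 had 134, 54, 272, and 52.8 CPM and Sema3d 43.6, 13, 75.1, and 13.3 CPM in RaptorKO contralateral 1 to 4. RaptorKO contralateral 3 was the highest and RaptorKO contralateral 1 the next for all 4 genes, and Ntng1, Efnb3, Ntn1, and Sema3d were not called between contralateral genotypes (adjusted p = 0.339 to 0.692, edgeR QL test). The sum of 4 perineurial markers (Slc2a1, Cldn1, Moxd1, and Lypd2) was 519, 357, 784, and 320 CPM in RaptorKO contralateral 1 to 4 and 422, 329, and 455 CPM in the controls and was highest in the same 2 RaptorKO libraries. It fell to 125 to 153 CPM in control and 176 to 212 CPM in RaptorKO injured nerves, with 4 of 4 markers lower upon injury in both genotypes and none at 0. RaptorKO contralateral 3 also held the most adipocyte and muscle marker counts, with sums of 134 CPM against 0 to 9.21 CPM and 25.9 CPM against 3.14 to 13 CPM in the other 3 RaptorKO contralateral nerves. The part of these cells in the values of the members was not tested, and the 4 genes were picked after their values were seen. Ntn1 in RaptorKO nerves had a log2 fold change upon injury of -1.38 (adjusted p = 0.0385, with 0.00192 to 0.11 over its alternatives), which was -0.72 without RaptorKO contralateral 3 (adjusted p = 0.0756, edgeR QL test). This call was also lost without RaptorKO contralateral 1 or any 1 injured RaptorKO library, and with DESeq2 (adjusted p = 0.0587). Sema3d was called lower upon injury, with log2 fold changes of -2.36 in controls and -2.63 in RaptorKOs. DESeq2 did not call it in controls (adjusted p = 0.101), where control injured 3 (11.3 CPM) overlapped control contralateral 2 (10.8 CPM). The fold changes were -1.77 and -3.79 without control injured 2 or 3, and -2.0 and -3.39 without RaptorKO contralateral 3 or RaptorKO injured 3.

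Whether the injury response differed between genotypes was tested as the interaction over all 13 libraries. It shares its libraries with the comparisons above. Of 57 members, 1 was called higher (Sema6c) and 2 lower (Epha5 and Sema6a), where 1.07% of all 12851 tested genes were higher, 1.41% lower, and 2.47% called in either direction (edgeR QL test). All 3 were detected on both sides, where 1.14% of genes were higher, 1.15% lower, and 2.29% called in either direction. At an unadjusted p below 0.05 there were 13 members. Epha5 rose less in RaptorKOs, with an interaction of -1.61 ± 0.20 on the log2 scale (adjusted p = 7.72e-04), and it was called under each of 17 alternatives and without both nerves of control replicate 3.

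Sema6c fell less in RaptorKOs, from a lower contralateral level to injured values that overlapped those of controls, with an interaction of 0.99 ± 0.23 (adjusted p = 0.038, with 0.00141 to 0.12 over its alternatives, edgeR QL test). Sema6a, a transmembrane semaphorin that binds class A plexins, had 37, 38, and 44.2 CPM in control contralateral and 59.5, 68.8, and 73.8 CPM in control injured nerves. Its RaptorKO values were 49, 43.8, 60.5, and 57.1 CPM before and 47.7, 54.6, and 56.9 CPM after injury. It rose in controls (0.74 ± 0.12, adjusted p = 1.54e-04), and in RaptorKOs the injured and contralateral libraries overlapped (0.01 ± 0.13), an interaction of -0.75 ± 0.18 (adjusted p = 0.0456, with 0.00613 to 0.125, edgeR QL test). The call of Sema6c was lost without any 1 library except RaptorKO contralateral 2, control injured 2, and RaptorKO injured 3, and that of Sema6a without any 1 except RaptorKO contralateral 2 and control injured 1. Without both nerves of control replicate 3 the interactions were 0.89 for Sema6c (adjusted p = 0.12) and -0.76 for Sema6a (adjusted p = 0.116, edgeR QL test). For Sema4f (-1.74 ± 0.82, adjusted p = 0.352) and Ntng1 (-1.65 ± 0.67, adjusted p = 0.265) the estimates were as large as that of Epha5 with far wider errors.

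Finally, 68 other genes of the guidance pathways were examined as a list of partners. It holds genes that act inside the cell, such as collapsin response mediators, beside coreceptors and further ligands and receptors. Upon injury 21 of 61 tested partners were higher and 22 lower in controls, and 21 higher and 20 lower in RaptorKOs (edgeR QL test), close to the shares of all genes given above. In injured nerves 3 partners were lower and 2 higher in RaptorKOs, or 8.2% of 61, near the 8.54% of all tested genes. Flrt3, an adhesion protein that binds Unc5 and Robo receptors, had 88.7 to 92.5 CPM in controls and 38 to 44.9 CPM in RaptorKOs (-1.08 ± 0.11, adjusted p = 3.61e-04), and it was called under all alternatives run. Srgap3, a GTPase-activating protein that binds Robos, differed by -0.70 ± 0.15 (adjusted p = 0.0148, lost without control injured 1 or RaptorKO injured 1, with 0.00137 to 0.0685 over its alternatives). Dpysl3, a collapsin response mediator, differed by -0.49 ± 0.11 (adjusted p = 0.0162, lost without control injured 1 or 3 or RaptorKO injured 1, with 0.00237 to 0.0807, edgeR QL test). The higher partners were Enah, which extends actin filaments (0.73 ± 0.19, adjusted p = 0.0398, with 0.0103 to 0.15), and Farp1, an exchange factor that binds class A plexins (0.60 ± 0.15, adjusted p = 0.031, with 0.0102 to 0.114). Farp1 lost its call without any 1 library, and Enah without any 1 except RaptorKO injured 1.

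In contralateral nerves 5 partners were lower and 1 higher in RaptorKOs, or 10.3% of 58 tested, near the 10.2% of all tested genes. Met, the receptor of hepatocyte growth factor and a plexin partner, had 57.8 to 62.9 against 33.9 to 43.7 CPM (-0.65 ± 0.11, adjusted p = 0.00417, edgeR QL test). It was called under all alternatives run. Dpysl5 differed by -0.82 ± 0.18 (adjusted p = 0.0178, lost without control contralateral 1 or 3, with 6.48e-04 to 0.0865) and Tiam1, a Rac exchange factor, by -0.61 ± 0.12 (adjusted p = 0.011, lost without control contralateral 3, with 4.12e-04 to 0.061). Srgap2 was higher (0.48 ± 0.097, adjusted p = 0.012, lost without control contralateral 1 or 2, with 1.30e-04 to 0.0699, edgeR QL test). In the interaction, Dpysl3 (-1.05 ± 0.25, adjusted p = 0.0415) and Flrt3 (-1.0 ± 0.17, adjusted p = 0.00746) rose less upon injury in RaptorKOs, and Tiam1 fell less (1.03 ± 0.24, adjusted p = 0.0362). Flrt3 kept this call under all alternatives run, while Dpysl3 was called without RaptorKO contralateral 2, 3, or 4 or control contralateral 3 and Tiam1 without RaptorKO contralateral 3, control injured 1, or RaptorKO injured 2 among the single libraries (adjusted p up to 0.106 and 0.155, edgeR QL test).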

How the data were processed

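The values are the expected counts per gene that the authors made with RSEM 1.2.22 after read trimming with Trimmomatic and alignment to GRCm38, and deposited for 13 TruSeq libraries of 8200458 to 13581775 counts. Between 24.93% and 27.95% of the counted entries were not whole, and counts were rounded. The study used a stranded TruSeq kit, but the strand setting of the counting is not given in the sources used here. Ephb4, Unc5a, Sema4c, and Ntn5 may therefore share reads with genes on the other strand. Ntng2 overlaps a gene on its own strand. Exon lengths were taken from GENCODE M21 by gene name and identifier, which matched 40550 of 40787 genes.

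Differential expression was tested with edgeR 4.0.16 (R 4.3.3, limma 3.58.1) using TMM factors and the quasi-likelihood test, within the groups compared (the interaction with all 13 libraries), over genes that reached 50 counts in 2 of those libraries. Benjamini-Hochberg adjustment covered all genes tested, and a call needed an adjusted p below 0.05 and a fold above 1.2. The code was tested on simulated data. Alternatives were DESeq2 1.42.0, its size factors, no count filter, edgeR's exact test, 1 fit of all 13 libraries, the replicate number as a block, and each library left out. Leaving out both nerves of control replicate 3, and counting only members detected on both sides, were added after the data were seen. Figures were drawn with matplotlib 3.10.9 under Python 3.11.15.

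The members and lists were chosen with earlier results of these data known. Genes named with full values were those called in a genotype comparison or the interaction and the 6 largest changes each way among non-overlapping calls upon injury of controls. The rest are given by counts, with at most 2 changes per family. Partners called in a genotype comparison are named up to 3 in each direction. Marker lists covered Schwann cells, myelin, fibroblasts, perineurium, endothelium, pericytes and smooth muscle, macrophages, T cells, mast cells, adipocytes, muscle, and neurons. Injured and contralateral nerves with the same number in the titles were taken to come from 1 mouse, as the study compared injured with corresponding nerves, and both libraries of control replicate 3 share their Xist and Y-linked counts. Deviations of these pairs correlated at r = -0.02 to 0.30. The main comparisons leave the mouse out, and blocked values are given where they change a call. Numbers shared between genotypes mark different mice. Group sizes follow the labels, and p-values measure the spread between these libraries.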

Additional observations from a re-analysis of the deposited data

Results flagged for a closer look

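The injury response of 6 genes differed between RaptorKO and control nerves by the test of the interaction (edgeR's quasi-likelihood test, 13 libraries). On the log2 scale these differences were -1.61 for Epha5, -0.75 for Sema6a, and 0.99 for Sema6c among the members, and -1.05 for Dpysl3, 1.03 for Tiam1, and -1.0 for Flrt3 among the partners. The called genes were 5.26% of 57 members and 4.92% of 61 tested partners, where 2.47% of all 12851 tested genes were called. Epha5 and Flrt3 kept the call under all alternatives run. The calls of Sema6a, Sema6c, Dpysl3, and Tiam1 were lost without most single libraries.

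In RaptorKO contralateral nerves, the one group of 4 libraries, 26 genes were examined for a library that stood apart from the other 3 by Dixon's ratio of its gap to the whole range, a test that picks about 1 in 20 groups by chance. Of these, 3 genes did so. RaptorKO contralateral 3 was high for Robo1 (ratio 0.874), RaptorKO contralateral 4 for Sema4b (0.942), and RaptorKO contralateral 2 for Sema6c (0.891).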

How the results depend on the processing

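Of the 12 calls between injured genotypes, 2 were made under every alternative (Epha5 and Sema3e), as were 0 of the 7 in contralateral nerves, 40 of 46 and 33 of 39 upon injury in controls and RaptorKOs, and 1 of 3 in the interaction (Epha5). No called value reversed its direction under any alternative run, while some values that were not called changed sign. DESeq2 called 4 partners higher in injured RaptorKOs (2 by edgeR), 7 members and 2 partners higher in contralateral RaptorKOs (4 and 1), and 4 members and 5 partners lower in the interaction (2 and 2). Without a count filter 4 partners were higher in injured RaptorKOs and 4 members lower in the interaction, and the exact test called 4 partners higher in injured RaptorKOs. With all 13 libraries in 1 fit, 1 member was lower in contralateral RaptorKOs (3). Without both nerves of control replicate 3, the interaction had 0 members higher and 1 lower, and 0 partners higher and 1 lower. The causes were not tested.

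With each library left out in turn, members called higher and lower numbered 0 to 2 and 3 to 9 between injured genotypes, 0 to 3 and 0 to 3 between contralateral genotypes, 18 to 23 and 25 to 26 upon injury in controls, 12 to 15 and 20 to 24 upon injury in RaptorKOs, and 0 to 1 and 1 to 2 in the interaction. Partners numbered 0 to 2 and 1 to 3, 0 to 2 and 1 to 9, 20 to 21 and 20 to 22, 19 to 21 and 17 to 22, and 0 to 1 and 1 to 3 in the same order. The log2 fold change of Rptor was -0.80 to -0.57 in injured and -1.07 to -0.95 in contralateral nerves.

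With the replicate number as a block, 1 member and 0 partners were higher in injured RaptorKOs, 11 members and 6 partners were higher and 10 partners lower in contralateral RaptorKOs. In these comparisons equal numbers mark different mice. Upon injury and in the interaction, where they mark 1 mouse, the block changed the calls of Efnb1 and Sema3f in RaptorKOs and of Sema3c in the interaction, and of no other member.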
